A study of Mus musculus with 30 samples.

Results

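*Lin28a*, *Lin28b*, *Hmga2*, *Igdcc3*, *Trim71*, *Igf2bp1*, *Igf2bp2*, *Igf2bp3*, *Fignl2* and *Arid3b* are genes tied to the LIN28 and let-7 developmental timing pathway. They were chosen by symbol for that tie, with earlier results of these same 30 libraries (their levels over time and their response to C59) in view. All 10 were found among the 50833 genes of the count table and the 20569 protein-coding genes in it, and all 10 passed the filter on low counts in each of 11 comparisons. Their calls therefore describe how each gene stands against the spread of its own libraries and are no evidence for the genes as a group.

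Timing genes of this kind were first found in the nematode, where lin-28 and lin-41 hold cells in an early state and the microRNA let-7 moves them to a later one. In mammals LIN28A and LIN28B bind let-7 precursor RNAs and block their processing, and mature let-7 pairs through its seed with the 3′ untranslated region (UTR) of target mRNAs and lowers their stability and translation. *Lin28a* and *Lin28b* are themselves let-7 targets, so that each side of the loop restrains the other, and LIN28 together with its let-7 targets is high in early embryonic tissue, limb buds included, and declines as organs form.

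The libraries were made from polyA RNA of wild-type (WT Swiss Albino) mouse forelimb buds, each from a pair of buds of an embryo whose mother was injected at E10.5. The DMSO groups received the solvent and the C59 groups received Wnt-C59, an inhibitor of porcupine, the enzyme that adds a lipid to WNT proteins and is needed for their secretion. Buds were collected 1, 6, 12, 18 and 24 h later, with 3 replicates for each of the 10 groups, from embryos of several litters, and C59-treated buds were staged by elapsed time and by size and shape. The mother was dosed, so the drug was not restricted to the limb or to a cell type.

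Libraries held 18188636 to 38974885 counts. Levels are given as CPM (counts relative to library size after TMM normalization) within a gene, and as FPKM, which corrects for transcript length, between genes. *Axin2*, which β-catenin switches on in response to WNT, was lower with C59 at 1 h (log2 fold change -0.19 ± 0.04, SE, 105 to 111 against 122 to 126 CPM), 6 h (-1.97 ± 0.06) and 12 h (-1.45 ± 0.06), and did not pass at 18 h (-0.16 ± 0.09) and 24 h (-0.08 ± 0.07). C59 18 h replicate 3 stood apart from its group: its counts differed from replicates 1 and 2 with a chi-square per degree of freedom of 45.5 and 38.1, against 4.21 between those replicates and 3.13 to 18.2 in the other groups. Summed markers of limb mesenchyme (7 genes such as *Prrx1* and *Tbx5*, none at 0) ran from 1360 to 1463 CPM with C59 and from 1887 to 1904 CPM with DMSO at 6 h, and from 1332 to 1383 against 1892 to 1979 CPM at 12 h, and the groups overlapped by 24 h (1692 to 1830 against 1771 to 1843 CPM). Of these 7 genes, 4 were called lower with C59 and 1 higher at 6 h, and 6 lower and 1 higher at 12 h. The hindlimb markers *Tbx4* and *Pitx1* together ran from 9.83 to 23.7 CPM over all groups. In bulk tissue a smaller share of expressing cells and less RNA per cell cannot be told apart.

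The mature let-7 family is shown first, because its seed is what the target genes share. RefSeq (GRCm38.p6) lists 9 mature sequences under the let-7 and miR-98 names, and 9 of 9 carry the same bases at positions 2 to 8, set in capitals here.
let-7a-5p: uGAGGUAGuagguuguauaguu
let-7c-5p: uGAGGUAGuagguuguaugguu
let-7d-5p: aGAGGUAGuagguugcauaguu
let-7f-5p: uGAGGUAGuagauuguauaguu
let-7g-5p: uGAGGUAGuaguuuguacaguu
let-7i-5p: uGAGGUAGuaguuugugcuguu
miR-98-5p: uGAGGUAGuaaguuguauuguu
Outside the seed the members differ at few positions, so a seed match in an mRNA does not tell them apart. LIN28 grips let-7 precursors through the letters GGAG in the loop between the arms, and 9 of the 12 hairpins listed hold GGAG between their arms, those of Mir98, Mirlet7b and Mirlet7c-2 excepted. The hairpin of Mirlet7g, which lies on chromosome 9 (chr9:106178840-106178927, plus strand) within *Wdr82*, is printed with that motif in capitals.
Mirlet7g hairpin: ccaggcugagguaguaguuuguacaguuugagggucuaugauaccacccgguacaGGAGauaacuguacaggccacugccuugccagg

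Each of the 10 genes held the letters CTACCTC, the complement of the let-7 seed, at least once in its longest annotated 3′ UTR (GENCODE M21, GRCm38, transcript strand only). Such a match occurred in 9.02% of 21010 protein-coding genes, and 3 or more matches occurred in 0.152% (32 genes), 5 of which are *Lin28b*, *Hmga2*, *Trim71*, *Igf2bp1* and *Fignl2*. The 10 genes held 26 matches in all, of which 18 were followed by an A, a form of site that is usually more effective. Per kilobase of 3′ UTR this was 0.84 matches against 0.07 over all genes, with a median 3′ UTR of 2523 bases against 960. The genes were listed for their tie to let-7, so this enrichment is a description of the list. A match in letters is also not proof of a working site.

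By gene, *Lin28b*, *Hmga2*, *Trim71* and *Igf2bp1* held 4 matches each, *Fignl2* held 3, *Lin28a* and *Igdcc3* held 2, and *Igf2bp2*, *Igf2bp3* and *Arid3b* held 1. *Igdcc3* had the densest set, 3.72 per kilobase in a 3′ UTR of 538 bases. The stretches below come from the genes with the steepest change over time and from the first match of *Lin28b*, *Trim71* and *Hmga2*, with the match and a following A in capitals, 5′ to 3′ on the strand of the gene.
Igdcc3 first match, chr9:65185711-65185740, plus strand: actctcagcacCTACCTCAgccggaatgaa
Igdcc3 second match, chr9:65185791-65185820, plus strand: cgaaagcactcCTACCTCAagccccttaat
Lin28a first match, chr4:134005178-134005207, minus strand: agcctgttgaaCTACCTCAtttttgccgat
Lin28a second match, chr4:134004540-134004569, minus strand: tcgccacaaacCTACCTCActgtgttgaaa
Fignl2 match nearest the 3′ end, chr15:101050241-101050270, minus strand: ttgtggcctgtCTACCTCAgaagacactgt
Lin28b first match, chr10:45381011-45381040, minus strand: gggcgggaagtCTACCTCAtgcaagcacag
Trim71 first match, chr9:114512461-114512490, minus strand: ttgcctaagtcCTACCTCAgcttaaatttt
Hmga2 first match, chr10:120364213-120364242, minus strand: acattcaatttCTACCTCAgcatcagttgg
All of these lie inside annotated 3′ UTR, and the first matches of *Lin28b* and *Hmga2* begin 36 and 58 bases after the stop codon.

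In mm10 coordinates *Lin28a* lies at chr4:134003330-134018841, *Lin28b* at chr10:45376620-45470201 and *Trim71* at chr9:114507133-114564369, all on the minus strand. *Hmga2* lies at chr10:120361275-120476469 (minus) and *Igdcc3* at chr9:65141189-65185872 (plus). *Igf2bp1* lies at chr11:95957163-96005940, *Igf2bp2* at chr16:22059009-22163299 and *Igf2bp3* at chr6:49085223-49214957, and *Fignl2* and *Arid3b* at chr15:101050194-101078567 and chr9:57790353-57836793, all minus. Levels per length differed widely among the 10 genes. At 1 h in DMSO, *Hmga2*, a chromatin protein of the high mobility group, was highest at 360.0 ± 11.5 FPKM (SD, n = 3), and *Lin28a* was lowest at 5.05 ± 0.196 FPKM. Between them lay *Igdcc3* (132 FPKM), *Igf2bp2* (91.1), *Igf2bp3* (60.7), *Igf2bp1* (47.8), *Fignl2* (29.1), *Arid3b* (21.8), *Lin28b* (12.8) and *Trim71* (6.89), and no pair of neighbours in this order overlapped over its 3 libraries. By 24 h the order had shifted. *Igdcc3* had dropped to 5.81 ± 0.722 FPKM, where its range overlapped that of *Fignl2* (6.31 ± 0.145 FPKM), and *Lin28a* stood at 0.378 ± 0.107 FPKM, the only gene of the 10 below 1 FPKM. The span from highest to lowest grew from 71.3-fold to 611-fold.

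Over the 24 h in DMSO every one of the 10 genes fell. This comparison (DMSO 24 h against DMSO 1 h) shows how the timing genes changed with time in solvent-treated limb buds. All 10 passed, meaning an adjusted p below 0.05 by edgeR over all genes tested, where 29.2% of 13580 genes tested were called lower and 30.2% higher. A fall beyond 1 on the log2 scale was passed by 6 of 10, against 12% of all genes in either direction. The median log2 fold change of the 10 was -1.60, against -0.002 over all genes tested. Early and late levels were among the values in view when the genes were chosen, so these shares are printed as background only. Marker sums were higher at 24 h than at 1 h for muscle (232.7 to 262.5 against 84.1 to 92.7 CPM), macrophages (36.3 to 39.7 against 14.1 to 17.9 CPM) and ectoderm (314.8 to 322.5 against 224 to 259.5 CPM). Those of limb mesenchyme were also higher (1771 to 1843 against 1713 to 1745 CPM), and those of endothelium lower (302.5 to 306.9 against 325.2 to 343.6 CPM). The ectoderm list was split, with 4 of 7 genes passing as lower and 3 as higher, and of 7 muscle genes 2 passed as lower and 5 as higher. Among the 7 limb mesenchyme genes 2 passed as lower and 4 as higher. The part of these shifts in the falls was not tested.

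**Figure D1:**
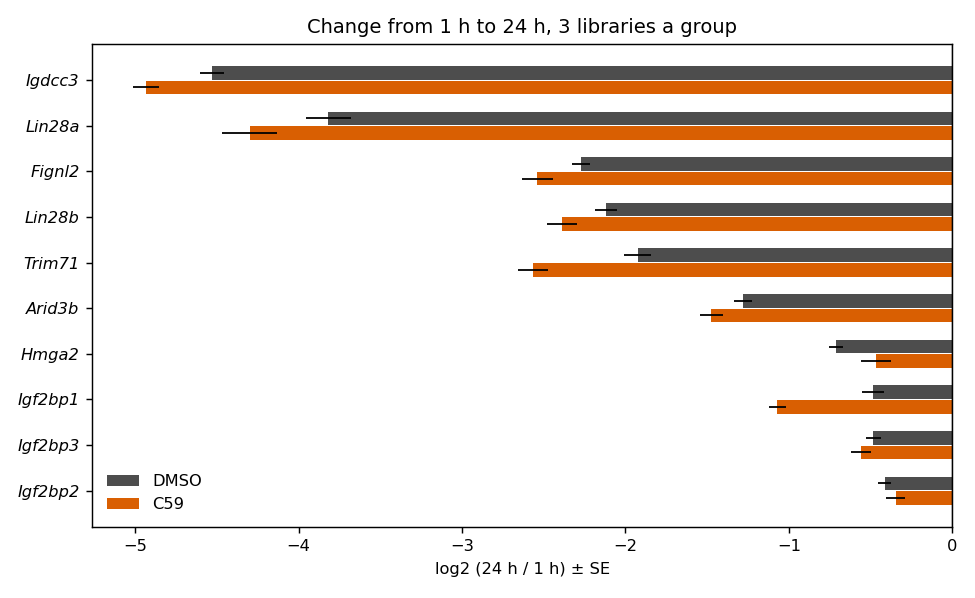
Bars give the log2 fold change from 1 h to 24 h of each gene (x axis) in the DMSO and the C59 libraries, with the SE of the fit and 3 libraries a group. Igdcc3 (-4.53 with DMSO) and Lin28a (-3.82) fell furthest, and Igf2bp2 (-0.41) least.

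*Igdcc3*, a cell surface protein of the immunoglobulin superfamily, fell furthest. Its 1 h libraries held 622, 605 and 627 CPM and its 24 h libraries 27.1, 29.9 and 23.3 CPM, a 23.1-fold fall (log2 fold change -4.53 ± 0.07, adjusted p = 1.16e-14) that ranked 5 from the lowest of 13580 genes. The fall ran on through each interval, to 329 ± 29.9 CPM at 6 h, 135 ± 31.6 CPM at 12 h and 58.7 ± 6.00 CPM at 18 h (SD, n = 3).

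*Lin28a*, which binds let-7 precursors in the cytoplasm, ranked 8. It fell from 19.2, 20.1 and 20.3 CPM at 1 h to 1.08, 1.60 and 1.47 CPM at 24 h (-3.82 ± 0.14, adjusted p = 2.01e-11). The late value rests on 21 to 41 counts per library. About 52.2% of its log2 fall had taken place by 12 h.

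*Lin28b*, its paralog that also blocks let-7 processing, fell less, from 89.5, 97.4 and 98.2 CPM to 20.6, 24.2 and 20.7 CPM (-2.12 ± 0.07, adjusted p = 6.26e-12). Per length, *Lin28b* stood above *Lin28a* in the 3 DMSO libraries of each end of the course. The fold between the paralogs thus widened over the 24 h, from 12.8 against 5.05 FPKM to 3.07 against 0.378 FPKM, and the change of that ratio was not tested.

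*Fignl2*, of the fidgetin family of AAA ATPases, fell by 2.27 ± 0.05 on the log2 scale, from between 161 and 183 CPM to between 34.6 and 36.3 CPM. *Trim71*, the mammalian counterpart of lin-41 and an RNA-binding repressor, fell by 1.92 ± 0.08, from 70.1, 86.5 and 89.8 CPM to 22.0, 21.0 and 21.9 CPM. *Arid3b*, a DNA-binding protein of the AT-rich interaction domain class, fell by 1.28 ± 0.06.

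The remaining genes fell by less than 1 on the log2 scale. *Hmga2* fell by 0.71 ± 0.04, from 1532, 1497 and 1569 CPM to 933, 969 and 905 CPM. The 3 IGF2 mRNA-binding proteins, which bind and stabilise transcripts, fell least and by close amounts: *Igf2bp1* by 0.49 ± 0.07, *Igf2bp3* by 0.48 ± 0.04 and *Igf2bp2* by 0.41 ± 0.04. *Hmga2* held 4 matches to the let-7 seed, 1 of them followed by an A. *Igdcc3* and *Lin28a*, which fell furthest, held 2 each, both followed by an A. Whether the number or form of the matches bears on the falls was not tested.

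The shape of the decline differed between genes. *Lin28a*, *Igdcc3* and *Lin28b* had covered 52.2%, 48.5% and 45.5% of their 24 h log2 fall by 12 h. *Arid3b* (32.8%), *Hmga2* (33.9%) and *Trim71* (36.1%) had covered less, and *Igf2bp1* (15.5%) and *Igf2bp2* (24.4%) the least. *Igf2bp1* was the one gene whose DMSO mean did not decrease at each step, at 468 CPM at 6 h and 477 CPM at 12 h.

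**Figure D2:**
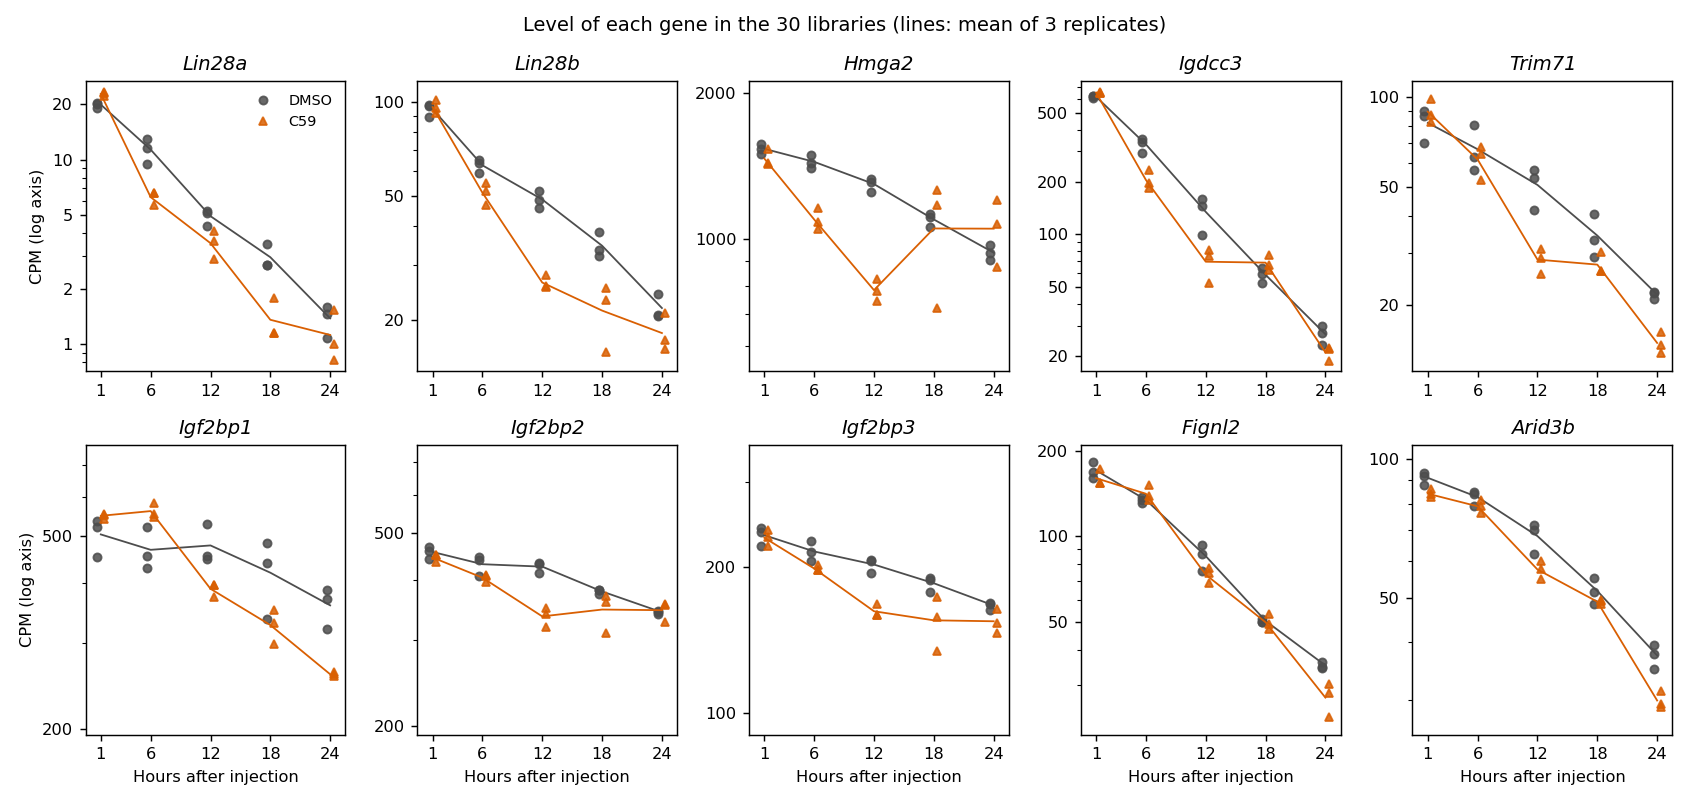
Each panel gives 1 gene in CPM on a log axis (scaled to each gene, spanning at least a factor of 3) against hours after injection; grey circles are DMSO libraries, orange triangles C59 libraries, and lines join the means of 3 replicates. Lin28a falls from about 20 to about 1 CPM in both treatments, while Igf2bp2 stays between 311 and 468 CPM, and the C59 line of Hmga2 dips to 744 to 826 CPM at 12 h before rejoining DMSO.

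In the C59 groups the same 24 h also ended in lower levels of each gene. In C59 24 h against C59 1 h all 10 fell, where 25.7% of 13510 genes were called lower, and 7 fell beyond 1 on the log2 scale, against 13.6% of genes in either direction. *Igdcc3* (-4.93 ± 0.08) and *Lin28a* (-4.30 ± 0.17) again fell furthest. *Igf2bp1* was the gene that passed the fold limit with C59 only, at -1.07 ± 0.05 against -0.49 ± 0.07 with DMSO, and *Hmga2* fell by 0.47 ± 0.09 with C59 against 0.71 ± 0.04 with DMSO. Both courses were fitted apart, and the difference between them was not tested.

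At 1 h after injection none of the 10 genes passed the test of C59 against DMSO. The test found 0 of 10 past the threshold (edgeR; DESeq2 also 0), where 1.61% of 13076 genes were called lower and 1.14% higher, and 4 of 10 had an unadjusted p below 0.05. Fold changes on the log2 scale lay between -0.11 and 0.19. The highest belonged to *Lin28a*, which held 22.0, 22.9 and 23.2 CPM with C59 and 19.2, 20.1 and 20.3 CPM with DMSO (adjusted p = 0.194).

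**Figure D3:**
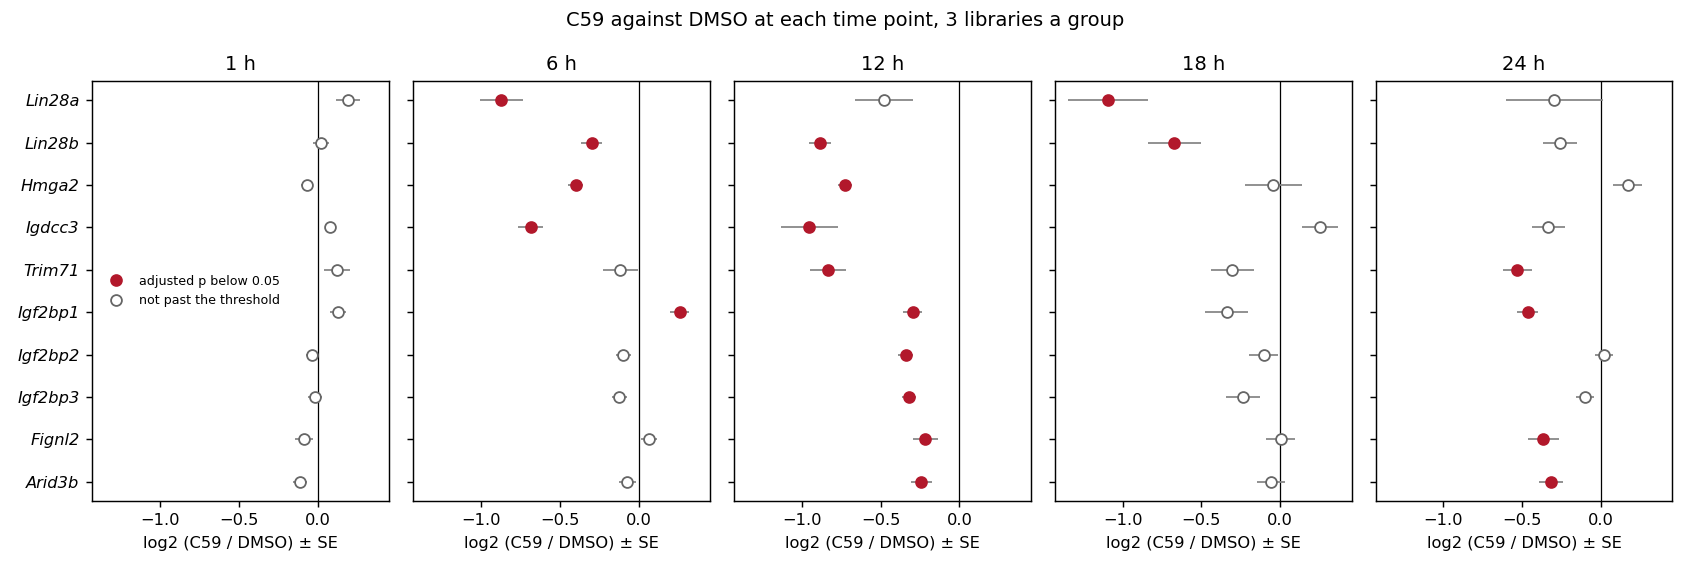
Points give the log2 fold change of C59 against DMSO with its SE for each gene (rows) at 5 time points (panels), 3 libraries a group; filled points passed an adjusted p below 0.05. No gene passed at 1 h, 9 of 10 lay below 0 and passed at 12 h, and at 18 h Lin28a and Lin28b passed.

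By 6 h the response divided the genes. *Lin28a*, *Igdcc3*, *Hmga2* and *Lin28b* were lower with C59, *Igf2bp1* was higher, and 5 genes did not pass. The background was 11.4% of 13100 genes called lower and 8.2% called higher. *Lin28a* held 5.66, 6.57 and 6.58 CPM with C59 against 13, 11.5 and 9.50 CPM with DMSO (-0.87 ± 0.14, adjusted p = 0.000605). The highest C59 library was well below the lowest DMSO library.

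*Igdcc3* held 198, 185 and 234 CPM with C59 and 352, 339 and 295 CPM with DMSO (-0.68 ± 0.08, adjusted p = 5.89e-05). *Hmga2* was at 1047, 1085 and 1155 CPM against 1491, 1433 and 1398 CPM (-0.40 ± 0.05, adjusted p = 5.98e-05). *Lin28b* was at 51.8, 46.7 and 55.1 CPM against 63.7, 65.3 and 59.1 CPM (-0.30 ± 0.07, adjusted p = 0.00646), a call lost under 3 of 15 alternatives. In each case the groups did not overlap. Marker sums also shifted at this time, lower with C59 for limb mesenchyme (above) and higher for muscle (124 to 139 against 94.9 to 98.3 CPM). Of 7 muscle genes 1 passed as lower and 2 as higher. The part of these marker shifts in the values above was not tested.

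*Igf2bp1* went the other way at 6 h. Its C59 libraries held 547, 556 and 584 CPM and its DMSO libraries 428, 520 and 455 CPM (0.26 ± 0.06, adjusted p = 0.00853), with no overlap. The call was lost without C59 6 h replicate 3. Its paralogs *Igf2bp2* (-0.10) and *Igf2bp3* (-0.12) did not pass, nor did *Trim71* (-0.12 ± 0.11), *Fignl2* (0.07) and *Arid3b* (-0.07).

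At 12 h all 10 genes lay lower with C59 and 9 passed, where 25.5% of 13324 genes were called lower and 22% higher. The median log2 fold change was -0.41, against 0.017 over all genes tested. The log2 fold changes lay between -0.95 and -0.22, so that none was beyond 1, where 4.95% of all genes passed with one. The C59 and DMSO libraries of *Fignl2* overlapped.

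*Lin28b* showed the clearest response of the paralogs at this time. Its C59 libraries held 25.6, 25.7 and 27.9 CPM and its DMSO libraries 52.0, 45.8 and 48.4 CPM, so that C59 left 54.2% of the control level (-0.88 ± 0.07, adjusted p = 4.7e-06). *Lin28a* held 2.89, 3.62 and 4.09 CPM against 5.29, 4.398 and 5.15 CPM, with an adjusted p of 0.0516 (-0.48 ± 0.18). It rests on 53 to 106 counts per library, and it passed under 4 of 15 alternatives.

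*Igdcc3* stood at 81.9, 75.0 and 52.4 CPM against 160, 99.3 and 145 CPM (-0.95 ± 0.18, adjusted p = 0.00151). *Trim71* stood at 28.9, 30.9 and 25.5 CPM against 57.0, 41.8 and 53.4 CPM (-0.84 ± 0.12, adjusted p = 0.000188). Both had wide DMSO spreads, with DMSO 12 h replicate 2 the lowest control for each.

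*Hmga2* had the lowest adjusted p of the 10 genes at 12 h, at 826, 780 and 744 CPM against 1329, 1251 and 1309 CPM (-0.73 ± 0.05, adjusted p = 1.45e-06). The IGF2 mRNA-binding proteins were lower by close amounts, *Igf2bp2* by -0.34 ± 0.05, *Igf2bp3* by -0.32 ± 0.05 and *Igf2bp1* by -0.30 ± 0.06. *Arid3b* (-0.24 ± 0.07, adjusted p = 0.0127) and *Fignl2* (-0.22 ± 0.08, adjusted p = 0.0428) had the smallest differences, and lost their calls under 6 (*Fignl2*) and 3 (*Arid3b*) of 15 alternatives.

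At 12 h markers of several cell types moved too: with C59, ectoderm sums (7 genes, none at 0) were 362 to 486 against 259 to 290 CPM, endothelial sums (6 genes) 349 to 390 against 280 to 309 CPM, macrophage sums (6 genes) 35.7 to 38.6 against 19.1 to 22.5 CPM. Muscle sums (128 to 161 against 105 to 131 CPM) and red cell sums (6602 to 9438 against 5246 to 7599 CPM) overlapped. The muscle list was split, however, with 3 of 7 genes passing as lower and 3 as higher, 3 of them beyond 1 on the log2 scale. The part of these shifts in the lower timing genes was not tested.

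The change between the first 2 effects was tested directly. From 6 h to 12 h the C59 effect became more negative for 6 of 10 genes, where 11.5% of 13565 genes did so. Of all genes called, 63.6% had a more negative effect, and 44.4% with limma on log2(FPKM + 1). *Trim71* (-0.72 ± 0.19, adjusted p = 0.0135), *Lin28b* (-0.59 ± 0.10, adjusted p = 0.000656) and *Igf2bp1* (-0.56 ± 0.10, adjusted p = 0.00082) moved most, the last from above the controls to below them. *Hmga2* (-0.33 ± 0.07), *Igf2bp2* (-0.25 ± 0.06) and *Igf2bp3* (-0.20 ± 0.06) moved less. The call of *Igf2bp3* was lost under 16 of 21 alternatives, and those of *Igf2bp2*, *Hmga2* and *Trim71* under 5, 3 and 2. *Lin28a*, with the strongest effect at 6 h, had an interaction of 0.39 ± 0.22 (adjusted p = 0.26), and *Igdcc3* one of -0.27 ± 0.22 (adjusted p = 0.43), so that for both the 6 h and 12 h effects could not be told apart.

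At 18 h 2 genes passed, *Lin28b*, as at 12 h, and *Lin28a*, which had not passed at 12 h, where 3.62% of 13413 genes were called lower and 3.46% higher, and *Lin28a* was the 1 gene beyond a log2 fold change of 1, against 1.29% of all genes. *Lin28a* held 1.78, 1.149 and 1.151 CPM with C59 and 3.52, 2.68 and 2.701 CPM with DMSO (-1.09 ± 0.25, adjusted p = 0.0366), on 23 to 100 counts per library. *Lin28b* held 25.4, 23.2 and 15.8 CPM against 33.5, 32.2 and 38.2 CPM (-0.67 ± 0.17, adjusted p = 0.0468). Without C59 18 h replicate 3 both still passed; without DMSO 18 h replicate 1, 2 or 3 or C59 18 h replicate 2 neither did. Marker sums at 18 h were 342 to 402 with C59 against 269 to 286 CPM with DMSO for ectoderm and 44.7 to 48.3 against 31.5 to 35.4 CPM for macrophages. Sums overlapped for muscle (133.2 to 185.1 against 181.9 to 183.5 CPM) and limb mesenchyme (1504 to 1828 against 1767 to 1859 CPM). In these lists 3 of 7 muscle genes and 2 of 7 limb mesenchyme genes passed as lower and none as higher. The part of these markers in the 18 h calls was not tested.

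*Hmga2* at 18 h depended on that library. Its C59 replicates held 1259, 1172 and 718 CPM, around the DMSO values of 1056, 1107 and 1124 CPM (-0.04 ± 0.18, adjusted p = 0.907). Replicates 1 and 2 were above every control and replicate 3 was below every control. Without replicate 3 the log2 fold change was 0.17 (adjusted p = 0.0759). *Igdcc3* held 76.7, 62.9 and 67.2 CPM against 64.3, 52.3 and 59.4 CPM (0.25 ± 0.12, adjusted p = 0.221), and *Trim71* was at -0.31 ± 0.14 (adjusted p = 0.213).

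At 24 h 4 genes passed as lower, all of which had also passed at 12 h. *Trim71*, *Igf2bp1*, *Fignl2* and *Arid3b* were called, where 3.56% of 13675 genes were called lower and 2.88% higher. *Trim71* held 14.7, 16.2 and 13.8 CPM with C59 against 22.0, 21.0 and 21.9 CPM (-0.53 ± 0.09, adjusted p = 0.00557). *Igf2bp1* held 259, 256 and 261 CPM against 370, 321 and 386 CPM (-0.47 ± 0.07, adjusted p = 0.00222). Groups did not overlap for either gene. Marker sums at 24 h were 367 to 403 with C59 against 314.8 to 322.5 CPM with DMSO for ectoderm, 46.8 to 50 against 36.3 to 39.7 CPM for macrophages and 257 to 283 against 302.5 to 306.9 CPM for endothelium. Muscle sums overlapped (211.3 to 240.8 against 232.7 to 262.5 CPM), with 3 of 7 muscle genes passing as lower and 1 as higher. The part of these markers in the 24 h calls was not tested.

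*Fignl2* (-0.37 ± 0.10, adjusted p = 0.0412) and *Arid3b* (-0.32 ± 0.08, adjusted p = 0.0319) passed narrowly at 24 h, and lost their calls under 8 and 7 of 15 alternatives. *Lin28a* (-0.30 ± 0.31) and *Lin28b* (-0.26 ± 0.11, adjusted p = 0.187) did not, nor did *Igdcc3* (-0.34 ± 0.10, adjusted p = 0.0753), which stood at 22.1, 22.2 and 18.9 CPM against 27.1, 29.9 and 23.3 CPM. *Hmga2* was at 872, 1200 and 1074 CPM against 933, 969 and 905 CPM (0.17 ± 0.09, adjusted p = 0.308), and its C59 replicate 1 was the lowest of the 6 libraries. Without that replicate 4 genes were still lower and *Hmga2* passed as higher (adjusted p = 0.0176). Without DMSO 24 h replicate 1, 2 or 3 or C59 24 h replicate 2 or 3, 2 of the 4 genes called lower were left.

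From 12 h to 24 h the C59 effect became less negative or turned positive for 4 of 10 genes, where 19.2% of 13798 genes moved up. These were *Hmga2* (0.89 ± 0.12, adjusted p = 2.27e-05), *Lin28b* (0.62 ± 0.14, adjusted p = 0.00225), *Igf2bp2* (0.35 ± 0.07, adjusted p = 0.000977) and *Igf2bp3* (0.21 ± 0.07, adjusted p = 0.0317). The call of *Igf2bp3* was lost under 9 of 21 alternatives. *Igdcc3* had a like value with a wider error (0.61 ± 0.24, adjusted p = 0.0584). For *Igf2bp1* (-0.18 ± 0.10, adjusted p = 0.168), *Fignl2* (-0.15 ± 0.13) and *Arid3b* (-0.08 ± 0.10) the 12 h and 24 h effects could not be told apart. The 3 IGF2 mRNA-binding proteins, with close 12 h values, stood at -0.47 (*Igf2bp1*), 0.02 (*Igf2bp2*) and -0.10 (*Igf2bp3*) at 24 h, and whether the paralogs differed was not tested.

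Because the genes decline with age, the C59 libraries were also placed on the DMSO course. For each C59 library the DMSO time with the same level was read by linear interpolation of the log2 means, for the 9 genes whose DMSO means decreased at each step. This is a description of levels and not a measure of age.

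**Figure D4:**
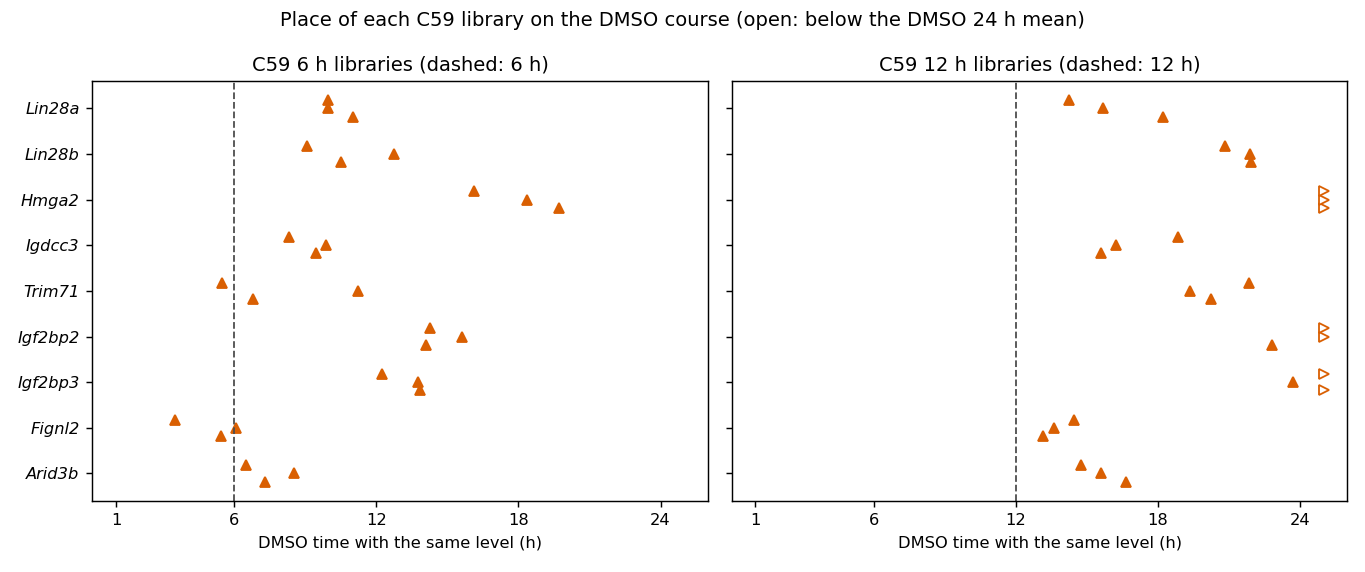
Triangles give, for each gene (rows), the DMSO time in hours at which the same level was reached by each of the 3 C59 libraries of 6 h (left) and 12 h (right); open triangles lie below the DMSO 24 h mean, and dashed lines mark the true time. At 12 h all points lie to the right of the line, from 13.1 h for Fignl2 to past 24 h for Hmga2.

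At 6 h the C59 levels of *Fignl2* (3.5 to 6.0 h), *Trim71* (5.5 to 11.2 h) and *Arid3b* (6.5 to 8.5 h) were near those of their own time. *Igdcc3* matched controls of 8.3 to 9.9 h, *Lin28a* 9.9 to 11 h and *Lin28b* 9.1 to 12.7 h. The genes with shallow courses were placed later, *Igf2bp3* at 12.2 to 13.8 h, *Igf2bp2* at 14.1 to 15.6 h and *Hmga2* at 16.1 to 19.7 h. A shallow course turns a small difference in level into many hours, so the width of the shift between genes carries that property. At 1 h, where no gene passed, *Arid3b* was placed at 4.01 to 6.05 h. *Hmga2* replicates 1 and 3 were placed at 6.3 and 6.7 h, and replicate 2 lay above the DMSO 1 h mean. All 1 h libraries of *Lin28a*, *Igdcc3* and *Trim71* also lay above that mean.

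At 12 h *Fignl2* matched 13.1 to 14.4 h, *Lin28a* 14.2 to 18.2 h, *Arid3b* 14.8 to 16.6 h and *Igdcc3* 15.6 to 18.9 h. *Trim71* (19.4 to 21.8 h) and *Lin28b* (20.8 to 21.9 h) were placed later. The 3 libraries of *Hmga2* lay below the DMSO 24 h mean. At 18 h *Igdcc3* was placed early (16.1 to 17.5 h) and *Fignl2* on both sides (17.3 to 19.2 h). *Hmga2* was split, with replicates 1 and 2 at 13.04 and 15.6 h and replicate 3 below that mean. *Lin28a*, *Lin28b*, *Trim71*, *Igf2bp2*, *Igf2bp3* and *Arid3b* lay late or below that mean. At 24 h *Hmga2* replicates 2 and 3 matched 14.8 and 18.8 h, with replicate 1 below that mean. *Lin28b*, *Igdcc3*, *Trim71*, *Igf2bp3*, *Fignl2* and *Arid3b* lay below it throughout.

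Direct fits put errors on the comparisons of C59 12 h with later controls. C59 12 h against DMSO 18 h called 3 genes lower, *Hmga2* (-0.45 ± 0.05, adjusted p = 0.000242), *Lin28b* (-0.36 ± 0.08, adjusted p = 0.00981) and *Igf2bp3* (-0.16 ± 0.05, adjusted p = 0.0362), and 1 higher, *Fignl2* (0.57 ± 0.06, adjusted p = 0.000184). The call of *Igf2bp3* was lost under 8 of 15 alternatives. Without DMSO 18 h replicate 1, 5 genes were called lower. The background was 16.4% of 13443 genes called lower and 15.4% called higher. Against DMSO 24 h, C59 12 h was higher for 6 genes, among them *Igdcc3* (1.42 ± 0.15), *Lin28a* (1.38 ± 0.23) and *Fignl2* (1.10 ± 0.06), and lower for *Hmga2* alone (-0.22 ± 0.05, adjusted p = 0.0033), where 18.8% and 20.1% of 13603 genes were called. Treatment and age differ at once in these comparisons and cannot be told apart, and both use the C59 12 h libraries.

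The profiles of the genes over the 30 libraries were compared by the root mean square difference of their centred log2 levels, a description in which time carries most of the likeness. Among 12540 genes compared, *Lin28b* and *Trim71* were each nearest to the other (0.235 on the log2 scale). *Trim71* was also the gene nearest to *Fignl2* (0.263). For *Lin28a* the nearest were *Prtg* (0.438), which encodes a protein related to that of *Igdcc3*, *Rspo4* (0.446) and *Igdcc3* itself (0.526). *Igdcc3* had *Rspo4* (0.433) and *Lin28a* (0.526) nearest. *Arid3b* had its paralog *Arid3a* nearest (0.098). *Hmga2*, *Igf2bp1*, *Igf2bp2* and *Igf2bp3* had no other gene of the 10 among their 3 nearest.

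Other genes of the pathway were followed in fixed lists. Of 17 genes for let-7 processing and LIN28 partners, 3 were lower and 2 higher at 6 h, 5 lower and 4 higher at 12 h, 0 of either kind at 18 h (3 at an unadjusted p below 0.05; edgeR) and 1 lower at 24 h. Over all genes tested 11.4% were lower and 8.2% higher at 6 h, and 25.5% and 22% at 12 h. The shares were 3.62% and 3.46% at 18 h, and 3.56% and 2.88% at 24 h. These are the background for the counts. At 12 h the lower genes were led by *Xpo5* (-0.45 ± 0.04), which exports precursors from the nucleus, and the nuclear processing pair *Drosha* (-0.37 ± 0.04) and *Dgcr8* (-0.34 ± 0.05), with 2 further genes. The higher ones included the Argonaute genes *Ago4* (0.74 ± 0.11) and *Ago1* (0.14 ± 0.05). Of the enzymes that add a uridine tail to LIN28-bound precursors, *Tut7* was higher at 12 h (0.14 ± 0.05) and *Tut4* at 6 h (0.16 ± 0.05). No change beyond 1 on the log2 scale occurred in this list in the 5 comparisons of C59 with DMSO. From 1 h to 24 h in DMSO 9 fell and 2 rose, where 29.2% of all genes tested fell and 30.2% rose.

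Of 22 other reported let-7 targets, 5 were lower and 1 higher at 6 h, and 10 lower and 2 higher at 12 h. The background at each time is that given for the list above. *Mycn*, a proto-oncogene transcription factor, was lowest at both times (-1.49 ± 0.06 and -1.25 ± 0.08). *Dna2* (-0.94 ± 0.06), a DNA replication nuclease and helicase, and *Ccnd1* (-0.70 ± 0.06), the gene of cyclin D1, were next at 12 h, and the receptor genes *Igf1r* (0.43 ± 0.07) and *Tgfbr1* (0.13 ± 0.04) were higher. At 18 h 1 was lower and 2 higher, *Mycn* now among the higher (0.35 ± 0.08), and at 24 h *Insr* (-0.33 ± 0.08) and *Igf1r* (-0.30 ± 0.07) were lower and *Pbx3* (0.32 ± 0.07) and *Ccnd1* (0.25 ± 0.06) higher. In DMSO from 1 h to 24 h 12 of these fell and 6 rose, where 29.2% of all genes tested fell and 30.2% rose. The falls of *Hmga1*, the relative of *Hmga2* (-1.16 ± 0.07), and *Nr6a1* (-1.14 ± 0.16) were beyond 1. Mature let-7 was not measured, and its part in these changes was not tested.

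The whole set of genes with a seed match gave a broader view. Leaving out the 10 genes, 1435 tested genes held at least 1 CTACCTC in the 3′ UTR, and from 1 h to 24 h in DMSO 27.9% of them fell and 33.5% rose, with a median log2 fold change of 0.037. Among 12093 genes without a match 29.3% fell and 29.8% rose, with a median of -0.005. With 3 or more matches (21 genes) 33.3% fell and 42.9% rose. The median 3′ UTR was 2339 bases with a match and 1098 without, so the classes also differ in length. With C59 at 12 h, 23.2% of the genes with a match were lower and 23.9% higher, against 25.8% and 21.9% without. At 6 h these shares were 9.81% and 11%, against 11.6% and 7.87% without, and at 18 h 2.54% and 3.46%, against 3.74% and 3.47%. At 24 h they were 4.94% and 1.88%, against 3.38% and 3.01% without, with median log2 fold changes of -0.029 and 0.008. The source of these differences between the classes was not tested.

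**Figure D5:**
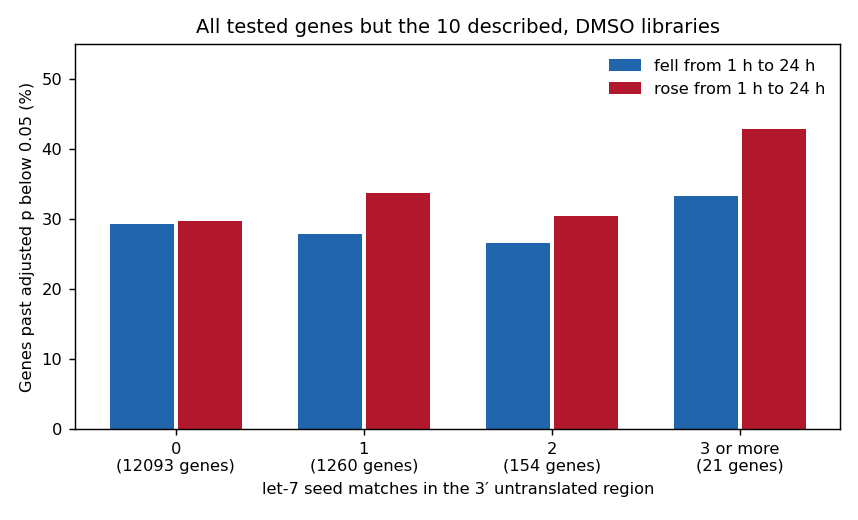
Bars give the percent of tested genes past an adjusted p below 0.05 that fell or rose from 1 h to 24 h in DMSO, by the number of let-7 seed matches in the 3′ UTR, with the 10 genes left out and the number of genes under each class. The share that fell was 29.3% with no match, 27.9% with 1, 26.6% with 2 and 33.3% with 3 or more, the last over 21 genes.

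Mature let-7 is not captured by polyA libraries, and precursor genes gave almost nothing. Counts of annotated Mirlet7 genes stayed at or below 0.0447 CPM in all libraries. Host transcripts were measured instead. *Mir100hg*, the host of Mirlet7a-2, was at 73.9 ± 20.6 CPM at 1 h and 122 ± 13.4 CPM at 24 h in DMSO, with a peak of 176 ± 57.0 CPM at 18 h. Its 12 h level was 146 ± 26.03 CPM with C59 and 120 ± 18.4 CPM with DMSO, ranges that overlapped. *Mir99ahg* stayed between 1.94 and 5.01 CPM. *Wdr82*, the host of Mirlet7g, was the only one among the protein-coding genes tested and was lower with C59 at 12 h (-0.18 ± 0.04, adjusted p = 0.00197), with 237 ± 2.21 against 269 ± 1.08 CPM. A host transcript does not give the amount of mature microRNA.

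Promoters were searched because the genes decline together. In RefSeq promoters (250 bases before to 50 after the start, GRCm38.p6), the motif CTTTGNN with each N an A or a T, as bound by the TCF/LEF partners of β-catenin, occurred on either strand in 16.9% of 32851 promoters and, among the 9 genes searched (*Igf2bp1* was not), in those of *Lin28a* and *Igdcc3*. *Hmga2* and *Lin28b*, also lower with C59 at 6 h, held no such match in this window. The match began 72 bases before the start in *Lin28a* and 165 before it in *Igdcc3*. It is in capitals below, on the strand of the gene.
Lin28a promoter stretch, chr4:134018852-134018918, minus strand: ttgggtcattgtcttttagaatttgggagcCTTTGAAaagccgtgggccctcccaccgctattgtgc
Igdcc3 promoter stretch, chr9:65140959-65141025, plus strand: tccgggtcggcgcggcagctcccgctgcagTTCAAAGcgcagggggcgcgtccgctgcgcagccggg
The letters CACGTG, the E-box bound by MYC proteins among others, occurred in 7.15% of promoters, and here in those of *Lin28b* (49 bases before the start) and *Igf2bp3* (2 matches, the first 23 bases before it).
Lin28b promoter stretch, chr10:45470215-45470280, minus strand: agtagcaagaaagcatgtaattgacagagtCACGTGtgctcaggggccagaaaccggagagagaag
Binding was not measured in these RNA libraries at any of these letters. The paper separately mapped β-catenin on chromatin of forelimb buds at 6 h and reported binding mostly at distal regions. This promoter window does not cover such regions, and that map was not used here.

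Exons of other genes overlap some of the 10. *Malsu1* on the opposite strand covers 18.7% of the exon bases of *Igf2bp3*, and *Gm13061* covers 5.86% of those of *Lin28a*. The strand of counting is not given in the sources used here, so part of those counts may belong to the neighbours.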

How the data were processed

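RNA was sequenced from 30 libraries of forelimb buds (polyA RNA, paired reads), 10 groups with 3 replicates each by the labels. Adapters were removed by the authors using Cutadapt 1.16, and STAR 2.7.0e aligned the reads to mm10 and counted them per gene of a modified annotation. The deposited counts are raw and autosomal only, without normalization. The deposited FPKM values were computed by the authors with Cufflinks 2.2.1 in unstranded mode, correcting for bias and multiply mapped reads. Depth was 18188636 to 38974885 counts per library.

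Counts were joined to gene symbols by Ensembl ID and to GENCODE M21 for gene type (50628 of 50833 IDs matched). The main test, on protein-coding genes, was the quasi-likelihood F test of edgeR 4.0.16 (R 4.3.3) after TMM normalization and the filterByExpr filter (minimum count 10, minimum total 15). Each comparison was fitted on its own libraries, and interactions on the 12 involved, without covariates. A gene passed at a two-sided Benjamini-Hochberg adjusted p below 0.05 over all genes tested; a log2 fold change beyond 1 was counted apart. SE values were derived from the F statistic. CPM values use TMM factors of all 30 libraries. The script was tested on simulated data. Alternatives were DESeq2 1.42.0 (test, size factors), other filters, all genes, a spread shared by 30 libraries, limma 3.58.1 on log2(FPKM + 1) and log2(FPKM + 0.1), a replicate block, and leaving out each library.

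The genes and lists were chosen with earlier results of these data known. The rule for named genes was all 10 genes plus, of each list and time, up to 3 genes each way with the largest change among those that passed. The limb mesenchyme, hindlimb, ectoderm, erythroid, muscle, endothelial and macrophage markers were summed in CPM. *Mirlet7bhg* and the marker *Alas2* were not found by name. Seed matches were searched in the longest 3′ UTR of each protein-coding gene of GENCODE M21, and miRNAs and promoters came from RefSeq tables.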

Additional observations from a re-analysis of the deposited data

Results flagged for a closer look

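The effect of C59 differed between time points by the interaction test for several genes. From 6 h to 12 h it became more negative for *Lin28b* (-0.59 on the log2 scale), *Hmga2* (-0.33), *Trim71* (-0.72), *Igf2bp1* (-0.56), *Igf2bp2* (-0.25) and *Igf2bp3* (-0.20). From 12 h to 24 h it moved up for *Lin28b* (0.62), *Hmga2* (0.89), *Igf2bp2* (0.35) and *Igf2bp3* (0.21). The call of *Igf2bp3* was lost under 16 of 21 alternatives for the first change and 9 of 21 for the second. That of *Igf2bp2* was lost under 5 of 21 for the first change.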

How the results depend on the processing

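Over 11 comparisons, 61 results passed for the 10 genes, and 975 alternatives bore on them, of which 882 kept the direction and the call, 93 kept the direction and lost the call, and 0 reversed. A total of 44 results passed in every alternative, among them 10 of 10 for each 24 h course, 7 of 9 at 12 h, 3 of 5 at 6 h, 1 of 4 at 24 h (*Igf2bp1*) and 0 of 2 at 18 h. With a spread shared by all 30 libraries, 0 genes passed as higher at 6 h, 4 as lower at 18 h, 2 as higher in C59 12 h against DMSO 18 h and 0 as lower against DMSO 24 h. With limma on FPKM, at a pseudocount of 1 and of 0.1 alike, 0 genes were lower at 18 h, 1 at 24 h and 2 in the change from 6 h to 12 h, and 2 were higher in C59 12 h against DMSO 18 h, as also with a mean of at least 1 CPM (2). Testing every gene that was counted, 1 of the 10 was lower at 18 h. The FPKM scale moved the share of lower calls among all calls from 49.2% to 37% (DMSO 24 h against 1 h), from 47.5% to 30% (C59 24 h against 1 h), from 53.6% to 41.7% (12 h), from 55.3% to 37.2% (24 h), from 63.6% to 44.4% (the change from 6 h to 12 h) and from 58.6% to 72% (1 h), and moved the median of all genes by at most 0.102. All 10 genes fell on that scale too. The cause of these shifts was not tested.

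Leaving out 1 library at a time gave 4 to 4 genes lower and 0 to 1 higher at 6 h, 7 to 10 lower at 12 h, 0 to 2 lower at 18 h, 2 to 4 lower and 0 to 1 higher at 24 h, 4 to 7 lower for the change from 6 h to 12 h, and 3 to 6 higher and 0 to 1 lower for that from 12 h to 24 h. C59 12 h against DMSO 18 h gave 2 to 5 lower, the 5 without DMSO 18 h replicate 1, and 1 to 2 higher. Against DMSO 24 h it gave 1 lower and 6 to 7 higher. *Hmga2* at 18 h ran from -0.20 to 0.17, the latter, of opposite sign, without C59 18 h replicate 3. With the replicate number as a block 1 gene was lower at 18 h and 2 were higher in C59 12 h against DMSO 18 h, and the other counts stayed within 1.5 times. Correlations of deviations between DMSO and C59 libraries of the same number ran from -0.213 to 0.136. At 12 h each replicate correlated best with its own number, though weakly (0.0361, 0.0893 and 0.136). At 24 h only replicate 2 did (0.0272), and at 1, 6 and 18 h none. Depth limits *Lin28a*, with 17 to 41 counts per library at 24 h.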
